A study of Mus musculus with 4 samples.

Results

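The 10 marker genes Flt3, Zbtb46, Xcr1, Clec9a, Itgae, Batf3, Cd209a, Ccr7, Fscn1 and Siglech of dendritic cell subsets were followed in mRNA from lung CD11b+Ly6g+ MDSCs (myeloid-derived suppressor cells). The set was chosen by gene symbol, and 10 of 10 symbols were found among the 54532 genes counted. Flt3 and Zbtb46 stand for conventional dendritic cells in general, Xcr1, Clec9a, Itgae and Batf3 for the conventional type 1 subset, Cd209a for type 2, Ccr7 and Fscn1 for the migratory state, and Siglech for plasmacytoid dendritic cells. The cells came from C57BL/6 mice aged 6 to 8 weeks with an induced pre-metastatic niche (PMN) in the lung. All mice, controls included, were injected intraperitoneally with 300 μL of MCM, medium conditioned by melanoma cells, on 10 consecutive days, and received B16F10 melanoma cells by tail vein on day 7. The control group (Ctrl) had no peptide. The other groups received TP5, sFD17 or FR17 subcutaneously at 40 μM/kg/day from day 3, and lungs were taken on day 10. TP5 is the immunomodulatory pentapeptide thymopentin, FR17 is a branched peptide that carries TP5 and assembles into sheets after MMP2 cleavage, and sFD17 is the same design with a scrambled pentapeptide in place of TP5. Each group is 1 library from the pooled sorted cells of 10 to 12 mice, so no difference has a replicate check. The intervals given are 95% counting intervals, which cover counting error only and compare libraries, not treatments.

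Dendritic cells take up antigen in the tissue and present it to T cells. Type 1 conventional cells depend on the transcription factors BATF3 and IRF8 and present antigen from dead cells to CD8 T cells, type 2 cells mainly prime CD4 helper T cells, and either kind turns on CCR7 and fascin when it leaves for the lymph node. Plasmacytoid cells are specialised for the secretion of type I interferon. In the mouse lung, type 1 cells carry the integrin CD103 and little CD11b, and Ly6G is a marker of neutrophils, so none of these subsets is the main target of a CD11b+Ly6g+ sort.

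The libraries held 15543071 to 19638228 counts, and levels are given as CPM (counts per 1000000, on library sizes scaled by edgeR's TMM method). The 18 neutrophil markers summed to 31772 to 46758 CPM, while the 10 dendritic genes summed to 208 in control, 361 in TP5, 283 in FR17 and 216 in sFD17. Both sorting markers were present in every library, with 5711 to 6924 counts of Itgam (CD11b) and 1234 to 2081 of Ly6g. All 10 dendritic genes were detected in all 4 libraries, from 40 counts of Xcr1 in control to 2753 of Cd209a in TP5, and all 10 passed the filter of at least 10 counts in at least 1 library. In such bulk samples, fewer cells of a type and less RNA per cell cannot be told apart. Markers of other cells moved between the libraries too: the 17 markers of alveolar and interstitial macrophages summed to 3783 CPM in control, 2405 in TP5, 4535 in FR17 and 1237 in sFD17.

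Per kilobase of exon, the type 2 lectin Cd209a was the most abundant of the 10 in every library, at 51.9 CPM per kb in control, 99.1 in TP5, 66.0 in FR17 and 49.3 in sFD17. It was followed in each by Ccr7, at 23.6 CPM per kb in control, 33.5 in TP5, 31.6 in FR17 and 29.0 in sFD17, and then by Batf3. Xcr1, the receptor for the chemokine XCL1, was the lowest in every library, at 0.532 CPM per kb in control, 1.33 in TP5, 0.929 in FR17 and 0.732 in sFD17. Cd209a was thus the most abundant and Xcr1 the least abundant of the 10 whichever library was read. Between them, some neighbours in the order could not be separated. In control, Siglech and Flt3 differed per kb by a ratio of 1.12 (0.922 to 1.37), Flt3 and Clec9a by 1.24 (0.991 to 1.55), and Itgae and Zbtb46 by 1.01 (0.769 to 1.32), all intervals that hold 1. In sFD17, each gene in the order Flt3, Fscn1, Clec9a, Itgae and Zbtb46 could not be separated from the next by counting error either. Only adjacent genes were compared, not the ends of this run, Flt3 at 3.39 and Zbtb46 at 1.82 CPM per kb. Siglech stood above Clec9a, Itgae and Zbtb46 in control, TP5 and FR17 but below all 3 of them in sFD17. In TP5 Siglech and Itgae could not be separated, at a ratio of 1.04 (0.849 to 1.28).

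**Figure D1:**
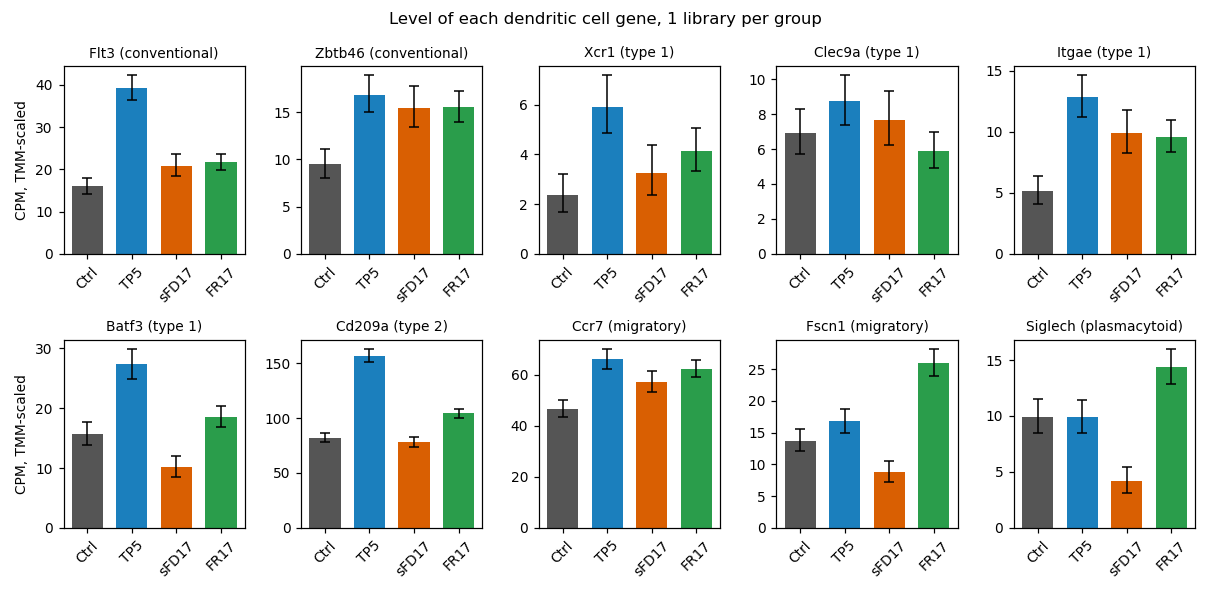
Level of each of the 10 dendritic cell genes in CPM on TMM-scaled library sizes (vertical axes, each starting at 0) in the control, TP5, sFD17 and FR17 libraries. Bars are single libraries and error bars are 95% counting intervals. The TP5 bar is the tallest for 8 genes, and the FR17 bar for Fscn1 and Siglech.

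Of the 10 genes, 8 had their highest level in TP5 and 2, Fscn1 and Siglech, in FR17. The lowest level was in control for 5 genes, in sFD17 for 4 and in FR17 for 1, Clec9a. These places hold on the TMM scale, and with library size alone Zbtb46 and Ccr7 were also highest in FR17 and Clec9a was lowest in sFD17. The places were not counted over all genes, so they are a description without a background. A gene is counted below as past 2-fold when its ratio of CPM is at least 2 or at most 0.5. In TP5 against control, 3 of the 10 were at least 2-fold higher (Flt3, Xcr1 and Itgae) and 0 at least 2-fold lower, where 4.07% and 6.15% of all 16369 genes tested were. Of the 9200 genes with 40 to 1388 control counts, the range of the 10, 0.902% were at least 2-fold higher in TP5. The counting interval lay above 1 for 8 of the 10 and below 1 for 0, beside 18.1% and 18.8% of all genes. Intervals narrow as counts rise, and genes tested need only 10 counts in 1 library, while the 10 had at least 40 in each. The interval shares of all genes, here and below, are not matched for counts. The median log2 ratio of the 10 was 0.82, against 0.00 for all genes. The TP5 library thus held more of the dendritic genes than its genes as a whole.

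In sFD17 against control, 0 of the 10 were at least 2-fold higher and 1, Siglech, was at least 2-fold lower, beside 6.24% and 7.24% of all genes. Among genes of the same range of control counts 5.15% were at least 2-fold lower. The 10 did not move together there. The counting interval lay above 1 for 4 genes and below 1 for 3, where 22.8% and 22.1% of all genes did the same, and the median log2 ratio was 0.22 against -0.03. In FR17 against control, 0 of the 10 were at least 2-fold higher and 0 at least 2-fold lower, beside 5.07% and 4.55% of all genes. Of the 10, 9 had an interval above 1 and 0 below it, beside 21.4% and 24.3% of all genes, shares not matched for counts. The median log2 ratio was 0.48 against 0.03. With library size alone as the scale, Fscn1, Itgae and Xcr1 passed 2-fold in FR17, while the median log2 ratio of all genes there was then 0.27. The 3 comparisons share the control library.

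**Figure D2:**
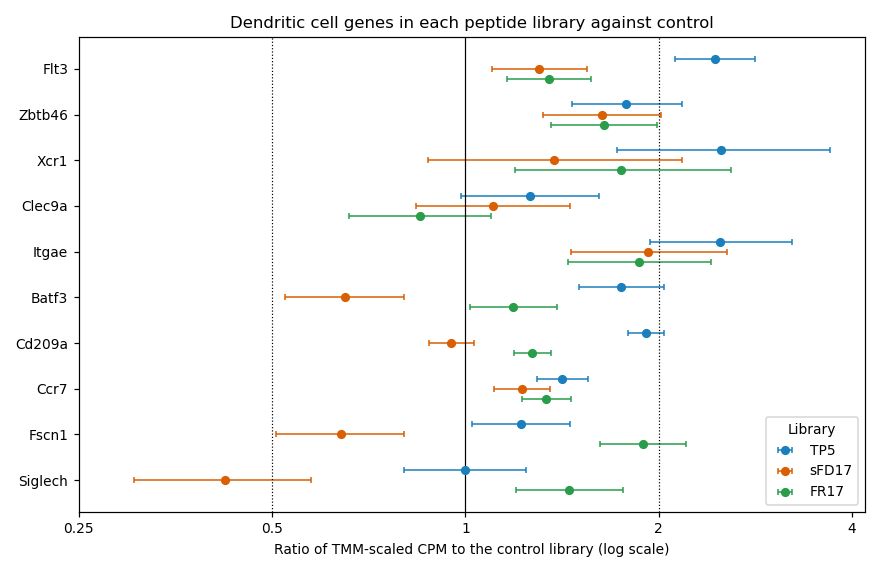
Ratio of TMM-scaled CPM in the TP5, sFD17 and FR17 libraries to the control library (horizontal axis, log scale) for the 10 dendritic cell genes. Points are single-library ratios, error bars are 95% counting intervals, the solid line marks 1 and the dotted lines 0.5 and 2. The TP5 points of Flt3, Xcr1 and Itgae lie to the right of 2, and the sFD17 point of Siglech lies to the left of 0.5.

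Flt3 (ENSMUSG00000042817, chr5:147330741-147400489, GRCm38) encodes the receptor for FLT3 ligand, the cytokine that drives dendritic cell development from bone marrow progenitors. It had 271 counts in control, 688 in TP5, 497 in FR17 and 276 in sFD17, or 16.0 CPM in control, 39.2 in TP5, 21.7 in FR17 and 20.9 in sFD17. TP5 stood above the other libraries, at 2.44 (95% interval 2.12 to 2.82) times control, and sFD17 and FR17 lay close to each other, at 1.3 (1.10 to 1.55) and 1.35 (1.16 to 1.57). Zbtb46 (ENSMUSG00000027583, chr2:181387762-181459426) encodes a zinc finger transcription factor that marks conventional cells and is not expressed by plasmacytoid ones. It had 160 counts in control, 296 in TP5, 357 in FR17 and 204 in sFD17, or 9.47 CPM in control, 16.9 in TP5, 15.6 in FR17 and 15.5 in sFD17. Control was the low library for Zbtb46, and the 3 peptide libraries did not differ from each other beyond counting error on the TMM scale, at ratios of 1.78 (1.46 to 2.17) in TP5, 1.64 (1.36 to 1.99) in FR17 and 1.63 (1.32 to 2.02) in sFD17. With library size alone the ratio of FR17 to sFD17 was 1.39 and that of sFD17 to TP5 0.761, both outside the intervals found on the TMM scale. Endothelial cells also express Zbtb46, and the 10 endothelial markers summed to 168 CPM in control, 128 in TP5, 219 in FR17 and 183 in sFD17. Their part in the Zbtb46 values was not tested.

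Among the type 1 genes, Xcr1 (ENSMUSG00000060509, chr9:123852315-123862029) had 40 counts in control, 104 in TP5, 95 in FR17 and 43 in sFD17. TP5 was highest and control lowest, with ratios to control of 2.50 (1.72 to 3.70) in TP5, 1.75 (1.20 to 2.60) in FR17 and 1.38 (0.874 to 2.17) in sFD17, the last within counting error. Clec9a (ENSMUSG00000046080, chr6:129408862-129424763) encodes a receptor for actin exposed on dead cells. It had 117 counts in control, 153 in TP5, 135 in FR17 and 101 in sFD17. It was the steadiest of the 4 type 1 genes, with a highest level only 1.48 times the lowest, and all 3 of its ratios to control had intervals that hold 1: 1.26 (0.983 to 1.62) in TP5, 0.849 (0.658 to 1.10) in FR17 and 1.10 (0.838 to 1.45) in sFD17. With library size alone the last pair lay on the other side of 1. Clec9a shares 184 of its 3293 exon bases with Clec1b on the same strand, a gene of 71 to 143 counts per library, and reads there cannot be assigned to either alone.

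Itgae (ENSMUSG00000005947, chr11:73090583-73147446) encodes CD103, the integrin chain that lets cells bind E-cadherin on epithelium. It had 87 counts in control, 225 in TP5, 220 in FR17 and 131 in sFD17, and control was below all 3 peptide libraries. The ratios were 2.49 (1.94 to 3.23) in TP5, 1.86 (1.45 to 2.41) in FR17 and 1.93 (1.46 to 2.56) in sFD17. CD103 is also carried by T cells and innate lymphoid cells of mucosal tissue. The 14 T cell markers summed to 52.1 CPM in control, 58.9 in TP5, 115 in FR17 and 47.5 in sFD17, more than 2-fold higher in FR17 than in control but not in TP5, where Itgae was highest, and the part of these cells in the Itgae values was not tested. Batf3 (ENSMUSG00000026630, chr1:191097847-191108945), the transcription factor, had 264 counts in control, 479 in TP5, 426 in FR17 and 134 in sFD17, or 15.6 CPM in control, 27.3 in TP5, 18.6 in FR17 and 10.2 in sFD17. Unlike Xcr1 and Itgae it was lowest in sFD17, at 0.650 (0.524 to 0.803) times control, against 1.75 (1.5 to 2.04) in TP5 and 1.19 (1.02 to 1.39) in FR17. Summed over the 4 type 1 genes, the ratio to control was 1.82 (1.63 to 2.03) in TP5, 1.27 (1.14 to 1.42) in FR17 and 1.03 (0.902 to 1.18) in sFD17. The sFD17 sum near 1 joined a lower Batf3 with higher Itgae, and without Batf3, the most abundant of the 4, it was 1.44.

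Cd209a (ENSMUSG00000031494, chr8:3743397-3748984) encodes a C-type lectin of the DC-SIGN family, expressed by type 2 cells and by monocyte-derived dendritic cells. It had 1388 counts in control, 2753 in TP5, 2399 in FR17 and 1031 in sFD17, or 82.2 CPM in control, 157 in TP5, 105 in FR17 and 78.1 in sFD17, and its ratios to control were 1.91 (1.79 to 2.04) in TP5, 1.27 (1.19 to 1.36) in FR17 and 0.951 (0.876 to 1.03) in sFD17. TP5 was highest, and on the TMM scale control and sFD17 differed by no more than counting error. With library size alone the ratio of sFD17 to control was 0.819, outside the interval found on the TMM scale. Cd209a shares no stretch of 50 bases with the transcripts of another annotated gene. The 12 monocyte markers, some of which such cells also carry, summed to 8157 CPM in control, 8127 in TP5, 8753 in FR17 and 6987 in sFD17. Their sum rests on a few abundant genes, and singly 8 of the 12 were above control in TP5, with a median log2 ratio of 0.27, from Vcan at 2.50 (1.69 to 3.76) and Ccr2 at 1.62 (1.54 to 1.70) down to Fn1 at 0.675 (0.659 to 0.691) and F13a1 at 0.393 (0.373 to 0.414). Their part in the Cd209a values was not tested.

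The migratory genes parted from each other. Ccr7 (ENSMUSG00000037944, chr11:99144196-99155077) encodes the receptor for the lymph node chemokines CCL19 and CCL21. It had 790 counts in control, 1161 in TP5, 1435 in FR17 and 756 in sFD17 and ratios to control of 1.42 (1.29 to 1.55) in TP5, 1.34 (1.22 to 1.46) in FR17 and 1.22 (1.11 to 1.35) in sFD17. Control was the lowest library, and the spread between the highest and lowest level was 1.42-fold, the smallest of the 10. Naive T cells and B cells also carry CCR7, and the 12 B and plasma cell markers summed to 148 CPM in control, 219.8 in TP5, 198 in FR17 and 168 in sFD17, in the same order of libraries as Ccr7, while the T cell markers given above were not in that order. Their part in the Ccr7 values was not tested. Fscn1 (ENSMUSG00000029581, chr5:142960343-142973185) encodes fascin, which bundles actin in the long extensions of mature dendritic cells. It had 232 counts in control, 294 in TP5, 596 in FR17 and 116 in sFD17, or 13.7 CPM in control, 16.8 in TP5, 26.0 in FR17 and 8.79 in sFD17. FR17 was the highest library and sFD17 the lowest, with ratios to control of 1.89 (1.62 to 2.21) and 0.640 (0.508 to 0.803), and 1.22 (1.02 to 1.46) in TP5.

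Siglech (ENSMUSG00000051504, chr7:55768178-55778925) encodes a sialic acid-binding receptor of plasmacytoid dendritic cells. It had 167 counts in control, 173 in TP5, 329 in FR17 and 55 in sFD17, or 9.89 CPM in control, 9.86 in TP5, 14.3 in FR17 and 4.17 in sFD17. Control and TP5 differed by no more than counting error, with a ratio of 0.998 (0.802 to 1.24), sFD17 lay below them at 0.422 (0.305 to 0.575) times control, and FR17 above them at 1.45 (1.20 to 1.76). Siglech had the widest range of the 10, its highest level being 3.44 times its lowest. The macrophage markers were also lowest in sFD17 and highest in FR17, at 0.327 and 1.20 times control in their sum, but unlike Siglech they were lower in TP5 than in control, at 0.636. Their part in the Siglech values was not tested.

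The peptides were given at the same dose and sampled on the same day, so their libraries can be set side by side. In FR17 against TP5, which differ in that FR17 carries TP5 on an assembling backbone, 0 of the 10 were at least 2-fold higher and 0 lower, beside 8.24% and 3.97% of all genes. Of the 10, 6 nevertheless had an interval below 1 and 2 above it, where 26.7% and 20% of all genes did. Flt3 lay lowest, at 0.552 (0.491 to 0.620), and Cd209a stood at 0.666 (0.630 to 0.704). Fscn1 and Siglech were higher in FR17, at 1.55 (1.34 to 1.79) and 1.45 (1.21 to 1.76). The ratios of Zbtb46, 0.922 (0.788 to 1.08), and Ccr7, 0.944 (0.874 to 1.02), were within counting error.

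FR17 and sFD17 both assemble and differ in the order of residues in the carried pentapeptide. Between them, 2 genes were at least 2-fold higher in FR17, Siglech and Fscn1, and 0 lower, beside 12.5% and 11.5% of all genes. Siglech stood at 3.44 (2.58 to 4.66) and Fscn1 at 2.95 (2.42 to 3.64). Batf3 and Cd209a were also higher in FR17 beyond counting error, at 1.83 (1.5 to 2.24) and 1.34 (1.24 to 1.44), and the other 6 had intervals that hold 1, from 0.768 (0.589 to 1.00) for Clec9a to 1.27 (0.877 to 1.87) for Xcr1. An interval above 1 was thus found for 4 of the 10 and one below 1 for 0, beside 30.6% and 29.7% of all genes. With library size alone, under which the median log2 ratio of all genes was 0.54, all 10 ratios were above 1, with Clec9a at 1.06 and Itgae at 1.33, and Batf3 passed 2-fold as well, at 2.52. Between sFD17 and free TP5, all 10 genes had a ratio below 1, with a median log2 ratio of -0.89 against -0.05 for all genes. Of the 10, 3 were at least 2-fold lower in sFD17 and 0 higher, beside 6.48% and 7.78% of all genes. These were Batf3, at 0.372 (0.305 to 0.451), Siglech, at 0.423 (0.306 to 0.575), and Cd209a, at 0.498 (0.463 to 0.535). With DESeq2's size factors Cd209a stood at 0.514, short of 2-fold. With library size alone 6 were at least 2-fold lower, while the median log2 ratio of all genes was then -0.31. On the TMM scale Clec9a and Zbtb46, at 0.877 (0.676 to 1.14) and 0.916 (0.763 to 1.10), had intervals that hold 1. The other 8 had intervals below 1 and 0 had one above it, beside 24.7% and 23.2% of all genes. All 6 comparisons between the 4 libraries were made, and they share libraries.

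Ratios of 2 genes inside a library need no scaling between libraries. Per count of Flt3, Xcr1 was nearly constant, at 0.148 (0.103 to 0.206) in control, 0.151 (0.122 to 0.186) in TP5, 0.191 (0.152 to 0.238) in FR17 and 0.156 (0.110 to 0.215) in sFD17. Siglech per Flt3 differed between libraries instead, at 0.616 (0.505 to 0.750) in control, 0.251 (0.212 to 0.297) in TP5, 0.662 (0.574 to 0.762) in FR17 and 0.199 (0.146 to 0.267) in sFD17, so that control and FR17 lay together and above TP5 and sFD17. Batf3 per Flt3 was 0.974 (0.819 to 1.16) in control, 0.696 (0.618 to 0.783) in TP5, 0.857 (0.751 to 0.978) in FR17 and 0.486 (0.392 to 0.599) in sFD17, lowest in sFD17. Fscn1 per Ccr7, the pair of migratory genes, was 0.294 (0.253 to 0.340) in control, 0.253 (0.222 to 0.288) in TP5, 0.415 (0.377 to 0.457) in FR17 and 0.153 (0.125 to 0.187) in sFD17. In this last ratio the FR17 interval lay above, and the sFD17 interval below, those of the other libraries.

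**Figure D3:**
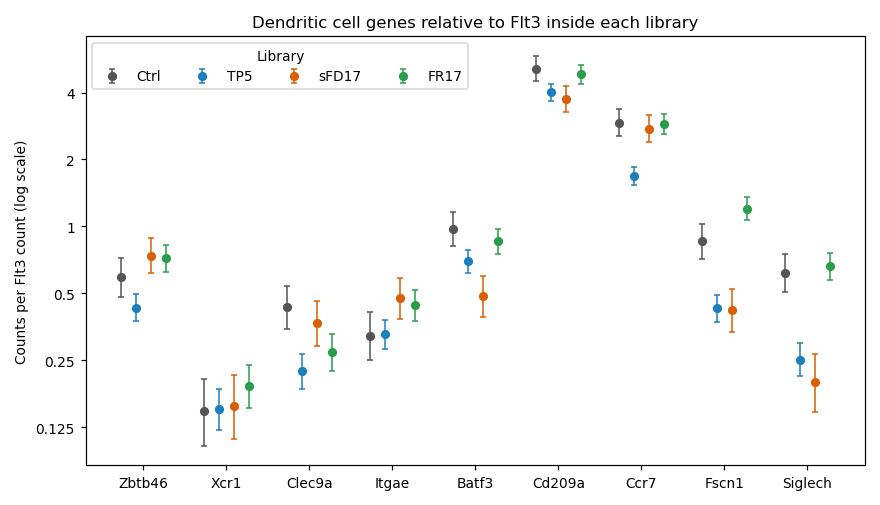
Counts of the other 9 dendritic cell genes per Flt3 count in the same library (vertical axis, log scale). Points are single libraries and error bars are 95% counting intervals. Xcr1 per Flt3 overlaps in all 4 libraries, while Siglech per Flt3 is higher in control and FR17 than in TP5 and sFD17.

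How alike a pair of genes varied was measured by the root mean square difference of their log2 CPM over the 4 libraries, after each gene was centred on its own mean. Of 45 pairs, Flt3 and Xcr1 were closest, at 0.15, followed by Zbtb46 and Ccr7 at 0.16, Zbtb46 and Itgae at 0.17, and Flt3 and Cd209a at 0.19. The 5 most distant pairs all held Siglech, up to 0.86 with Itgae, although Siglech was close to Fscn1, at 0.22. Batf3 was closer to Cd209a (0.21) than to the type 1 genes Xcr1 (0.38) and Itgae (0.57). With 4 libraries these distances are a description.

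The promoters of the closest pair, Flt3 and Xcr1, of Siglech, found in the 5 most distant pairs, and of Cd209a, the most abundant, are shown so that their sequences can be compared. RefSeq sequences of 250 bases before to 50 bases after the gene start were listed for 8 of the 10 genes, on GRCm38.p6. For 6 of these the window covers the gene start given with the counts, while those of Zbtb46 and Batf3 lie inside the gene and were not used. Capitals mark matches, on either strand, to any of 7 motifs: the PU.1 core AGGAAGT, the ETS-IRF composite (GGAA, 2 bases of any kind, GAAA), the paired interferon element (GAAA, 2 bases of any kind, GAAA), AP-1 TGANTCA, NF-κB (GGGA, 4 bases of any kind, CC), the E-box CANCTG and the TATA box TATAAA. The composite and the interferon element differ in 1 letter, so that no stretch matches both in the same place.
Flt3 (chr5:147400440-147400739, minus strand): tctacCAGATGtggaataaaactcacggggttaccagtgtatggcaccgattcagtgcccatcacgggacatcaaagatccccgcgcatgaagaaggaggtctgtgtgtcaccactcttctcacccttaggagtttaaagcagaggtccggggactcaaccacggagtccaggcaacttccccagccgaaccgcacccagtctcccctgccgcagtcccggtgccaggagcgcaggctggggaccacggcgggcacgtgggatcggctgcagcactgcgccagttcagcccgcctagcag
Xcr1 (chr9:123861980-123862279, minus strand): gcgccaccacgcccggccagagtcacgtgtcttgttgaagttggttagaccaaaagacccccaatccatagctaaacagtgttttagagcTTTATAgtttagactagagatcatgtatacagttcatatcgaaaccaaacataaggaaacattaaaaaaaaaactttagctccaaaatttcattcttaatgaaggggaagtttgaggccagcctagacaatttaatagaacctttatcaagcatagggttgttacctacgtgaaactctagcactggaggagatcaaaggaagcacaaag
Siglech (chr7:55767934-55768233, plus strand): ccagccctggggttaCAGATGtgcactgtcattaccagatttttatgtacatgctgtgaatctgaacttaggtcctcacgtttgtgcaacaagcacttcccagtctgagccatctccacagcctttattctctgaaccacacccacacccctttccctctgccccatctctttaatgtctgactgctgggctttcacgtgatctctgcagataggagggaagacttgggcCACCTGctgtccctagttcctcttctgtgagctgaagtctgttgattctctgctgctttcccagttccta
Cd209a (chr8:3748935-3749234, minus strand): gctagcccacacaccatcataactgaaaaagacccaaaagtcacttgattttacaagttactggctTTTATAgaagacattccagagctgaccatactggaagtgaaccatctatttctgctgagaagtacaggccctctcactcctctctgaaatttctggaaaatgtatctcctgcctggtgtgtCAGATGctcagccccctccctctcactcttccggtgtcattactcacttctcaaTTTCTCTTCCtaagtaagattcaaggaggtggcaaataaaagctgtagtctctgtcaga
The Cd209a window was the only one of the 6 to hold the ETS-IRF composite, found in 2.72% of 32851 promoters, and its match starts 9 bases before the RefSeq gene start. Flt3 and Xcr1, the most alike in pattern over the libraries, shared no motif: Flt3 had 1 E-box, a motif of 51.4% of all promoters, and Xcr1 had 1 TATA box, at 13.6%. Siglech had 2 E-boxes. The PU.1 core, the paired interferon element, the NF-κB motif and the AP-1 motif, present in 9.35%, 3.44%, 20.7% and 7.81% of all promoters, had no match in the 6 windows.

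The 10 genes were then placed among longer lists of genes of the same subsets, in which the 10 themselves are counted. For the numbers of list genes above control, no share of all genes above control was taken. The shared conventional list held 12 tested genes. Its median log2 ratio to control was 0.82 in TP5, where all 12 ratios were above 1, 0.22 in sFD17 and 0.27 in FR17, beside 0.00, -0.03 and 0.03 for all genes. Flt3, Zbtb46 and Batf3 are among the 12, so the list partly repeats their values, and Batf3 is counted in the type 1 list too. The others in TP5 were Dpp4 and H2-DMb2 at 1.79, Ifi205 at 1.94, Bcl11a at 2.22, and Ciita, Cd74, Itgax, Kit and Id2 between 1.03 and 1.29. Flt3 and Bcl11a, a transcription factor of the lymphoid and plasmacytoid lineages, passed 2-fold in TP5, as 4.07% of all genes did upwards, the latter at 2.22 (1.84 to 2.68). Ifi205, an interferon-inducible gene, passed it in sFD17, at 2.78 (2.16 to 3.60), and 0 genes did in FR17, beside 6.24% and 5.07% of all genes. H2-DMb2, a chaperone chain of the MHC class II pathway, stood at 1.79 (1.62 to 1.97) in TP5 and 1.39 (1.26 to 1.53) in FR17, and the class II invariant chain Cd74 stood at 1.29 and 1.23, with 0.755 in sFD17. The integrin Itgax (CD11c) and the regulator Id2, the other abundant genes of this list, ranged only from 0.902 to 1.15 and from 0.771 to 1.03 times control. Kit, the stem cell factor receptor, which mast cells also carry, stood at 1.15 (0.958 to 1.39) in TP5, 1.26 (1.06 to 1.5) in FR17 and 1.73 (1.44 to 2.08) in sFD17.

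The type 1 list held 19 tested genes, of which 17 were above control in TP5, 16 in FR17 and 11 in sFD17. The median log2 ratio was 0.33 in TP5, 0.32 in FR17 and 0.13 in sFD17. Of the 19, 5 passed 2-fold in TP5, all higher, beside 4.07% of all genes: Xcr1, Itgae, Sept3, Gcsam and Snx22. Sept3, a septin, had 126 counts in control, 452 in TP5, 263 in FR17 and 204 in sFD17 and ratios of 3.45 (2.83 to 4.24) in TP5 and 2.07 (1.65 to 2.61) in sFD17. Snx22, a sorting nexin, had 10 counts in control, 36 in TP5, 41 in FR17 and 23 in sFD17 and passed 2-fold in all 3 peptide libraries, but rests on few reads. In sFD17 Sept3 and Snx22, and in FR17 Snx22, were the genes of this list at least 2-fold higher, beside 6.24% and 5.07% of all genes. The abundant genes of the list differed from each other. Cd24a, a surface sialoglycoprotein that neutrophils and B cells share, stood at 1.05 (1.02 to 1.08) in TP5, 0.718 (0.697 to 0.739) in FR17 and 1.10 (1.07 to 1.14) in sFD17. Naaa, a lysosomal amidase, stood at 1.31 (1.24 to 1.38) in TP5, 1.25 (1.19 to 1.31) in FR17 and 0.832 (0.782 to 0.885) in sFD17, and Wdfy4, needed for cross-presentation, at 1.63 (1.56 to 1.69) in TP5, 1.02 (0.980 to 1.06) in FR17 and 1.72 (1.65 to 1.79) in sFD17. The small GTPase Rab7b was below control in sFD17, at 0.553 (0.489 to 0.624). Tlr11, a sensor of microbial profilin, had 34 counts in control, 59 in TP5, 57 in FR17 and 30 in sFD17, and Cd8a, which T cells share, had 27 counts in control, 33 in TP5, 59 in FR17 and 30 in sFD17. Irf8, the partner of Batf3 in this subset and also a factor of monocytes and plasmacytoid cells, was highest in FR17, at 1.46 (1.38 to 1.55). It stood at 1.10 (1.03 to 1.18) in TP5 and 0.962 (0.891 to 1.04) in sFD17.

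Of the 19 type 2 genes tested, 12 were above control in TP5, 14 in FR17 and 7 in sFD17, with median log2 ratios of 0.18, 0.31 and -0.07 in the same order. In TP5, 2 were at least 2-fold higher, beside 4.07% of all genes, the lectin Cd209e, at 3.58 (2.64 to 4.93), and the chemokine Ccl17, at 2.29 (2.02 to 2.60). In sFD17, 1 was higher and 1 lower, where 6.24% and 7.24% of all genes were. The lectin Clec10a was at least 2-fold lower, at 0.303 (0.269 to 0.341), and Clec4a4, with 21 counts in control, 20 in TP5, 36 in FR17 and 34 in sFD17, at least 2-fold higher. The related lectin Mgl2, like Cd209a, was above control in TP5, at 1.41 (1.36 to 1.47), against 0.766 (0.729 to 0.805) in sFD17, whereas Clec10a was below control in TP5 as well, at 0.583 (0.536 to 0.634). Cd209d stood at 1.52 (1.23 to 1.89) in TP5, 1.38 (1.12 to 1.70) in FR17 and 0.523 (0.378 to 0.714) in sFD17. Irf4, the transcription factor of the type 2 subset, was 1.96 (1.75 to 2.19) times control in TP5. In FR17, 1 of the 19 was at least 2-fold higher, beside 5.07% of all genes, Cd7, with 45 counts in control and 138 in that library, a gene that T and NK cells also express. Sirpa and Klf4, which monocytes and neutrophils share, stayed between 0.747 and 0.977 times control.

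The migratory or mature list was not of one direction. Of 27 tested genes, 18 were above control in TP5, 18 in FR17 and 16 in sFD17, and 4 passed 2-fold in each, all higher, beside 4.07%, 5.07% and 6.24% of all genes. The median log2 ratios were 0.28, 0.25 and 0.16 in the same order. The TP5 genes were Ccl17, the cytokine subunit Il12b at 2.29 (1.66 to 3.20), the calcium channel subunit Cacnb3 at 2.31 (1.54 to 3.53), and Tmem150c with under 12 counts in every library. FR17 had Cacnb3, at 2.40 (1.63 to 3.61), the costimulatory receptor Tnfrsf4 (OX40), also carried by T cells, at 2.13 (1.24 to 3.80), and Tmem150c and Slco5a1 on few counts. The sFD17 genes were Cd274 (PD-L1), at 2.70 (2.62 to 2.79), Mreg, at 3.30 (2.62 to 4.17), Marcksl1, at 2.14 (2.10 to 2.17), and Tmem150c. Cd274 and Marcksl1, with 11398 and 34924 counts in sFD17, are far more abundant than any of the 10 genes and are expressed by neutrophils too. Other abundant genes of the list, the maturation marker Cd83 and the adaptor Samsn1, both also expressed outside dendritic cells, differed in turn: Cd83 stood at 1.52 (1.48 to 1.57) in TP5, 1.11 (1.07 to 1.14) in FR17 and 0.876 (0.842 to 0.910) in sFD17, and Samsn1 at 0.939 (0.914 to 0.965) in TP5, 0.623 (0.606 to 0.641) in FR17 and 1.16 (1.13 to 1.20) in sFD17. Ccl22, a chemokine of mature dendritic cells that attracts CCR4+ T cells, stood at 1.91 (1.75 to 2.08) in TP5, 1.48 (1.35 to 1.61) in FR17 and 1.08 (0.972 to 1.20) in sFD17.

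The plasmacytoid list divided in sFD17. Of its 21 tested genes 4 were at least 2-fold higher there and 3 at least 2-fold lower, beside 6.24% and 7.24% of all genes. The higher ones were Irf7, the master regulator of type I interferon, at 5.23 (4.99 to 5.47), Ly6c2, at 2.67 (2.52 to 2.83), and the low genes Klk1 and Pacsin1. The lower ones were Siglech, the adaptor Blnk, at 0.492 (0.412 to 0.586), and Cd4, at 0.299 (0.236 to 0.376). Irf7 and Bst2, the latter at 1.51 (1.38 to 1.66), are induced by interferon in many cell types, and Ly6c2 is a monocyte marker. In TP5, 5 were at least 2-fold higher and 1 lower, beside 4.07% and 6.15% of all genes, and in FR17 4 were higher and 0 lower, beside 5.07% and 4.55%. In both, Ly6d, at 2.01 (1.54 to 2.63) and 2.10 (1.63 to 2.73), and the chemokine receptor Ccr9, at 2.41 (1.44 to 4.15) and 2.78 (1.72 to 4.67), passed 2-fold, as did Klk1, with 2 counts in control, 15 in TP5, 31 in FR17 and 8 in sFD17, and Pacsin1, with 11 counts in control, 37 in TP5, 40 in FR17 and 23 in sFD17. TP5 also had Upb1 higher, at 2.40 (1.81 to 3.21), and Cd4 lower, at 0.465 (0.389 to 0.553). The median log2 ratios were 0.52 in TP5, 0.42 in FR17 and 0.09 in sFD17. Tcf4, the transcription factor that specifies plasmacytoid cells, was below control in sFD17 like Siglech, at 0.763 (0.674 to 0.862), and its partner Spib was above, at 1.63 (1.31 to 2.04). In TP5 and FR17, Tcf4 stood at 0.908 (0.815 to 1.01) and 1.15 (1.04 to 1.26), and Spib at 1.83 (1.49 to 2.25) and 1.75 (1.44 to 2.14).

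**Figure D4:**
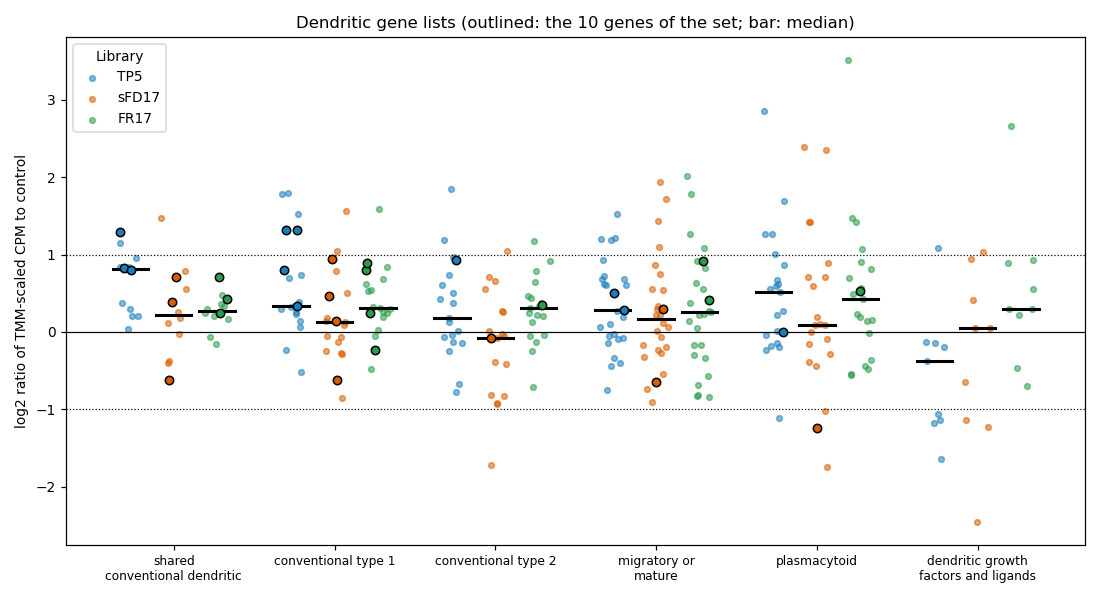
Log2 ratio of TMM-scaled CPM to control (vertical axis) for the tested genes of 6 dendritic gene lists in the TP5, sFD17 and FR17 libraries. Each point is a gene, outlined points are the 10 genes of the set, thick bars are list medians, and dotted lines mark 2-fold. The shared conventional list lies above 0 in TP5, and the plasmacytoid points in sFD17 spread both ways, with Siglech below −1.

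The ligands and growth factors for these receptors were scarce. Flt3l, the FLT3 ligand, had 119 counts in control, 108 in TP5, 189 in FR17 and 96 in sFD17 and ratios between 0.874 and 1.17, lowest in TP5, where Flt3 was highest. Xcl1, the ligand of XCR1, which NK and T cells secrete, had 5 counts in control, 11 in TP5, 43 in FR17 and 8 in sFD17, at 6.33 (2.51 to 20.5) times control in FR17. Ccl19, a ligand of CCR7, had 0 counts in every library, where a floor of 3 counts stands at 0.131 to 0.227 CPM, and Ccl21a, the other, had 9 counts in control, 0 in TP5, 18 in FR17 and 3 in sFD17. Of the 9 tested genes of this list, 1 was at least 2-fold higher and 4 lower in TP5, 1 higher and 3 lower in sFD17, and 1 higher and 0 lower in FR17, where 6.15%, 7.24% and 4.55% of all genes were lower and 4.07%, 6.24% and 5.07% higher. Besides Ccl21a, the lower genes were Kitl, the KIT ligand of stromal and endothelial cells, at 0.455 (0.360 to 0.572) in TP5 and 0.454 (0.349 to 0.584) in sFD17, Csf2 and Il34 in TP5, and Tslp in sFD17, each of these 3 with under 65 counts. The median log2 ratio of the list was -0.37 in TP5, 0.29 in FR17 and 0.05 in sFD17. The abundant receptor chains Csf2ra and Csf2rb, which neutrophils carry, stood at 0.723 and 0.617 in FR17.

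Markers of other cells are set beside these sums. T cell markers, given above, and the 13 markers of NK and innate lymphoid cells, with 96.7 CPM in control, 113 in TP5, 189 in FR17 and 83.8 in sFD17, were highest in FR17. Basophil, mast cell and eosinophil markers, with 21.0 CPM in control, 29.5 in TP5, 53.8 in FR17 and 31.2 in sFD17, were also highest there, and 0 markers of these lists were at 0 counts in any library. In TP5, where the dendritic genes summed to 1.73 (1.66 to 1.81) times control, neutrophil markers stood at 1.08, monocyte markers at 0.996, macrophage markers at 0.636, T cell markers at 1.13 and B and plasma cell markers at 1.49. Lung epithelium markers stood at 1.47, basophil, mast cell and eosinophil markers at 1.40, NK and innate lymphoid markers at 1.17, endothelial markers at 0.762 and fibroblast markers at 0.562. The longer dendritic lists summed to 1.29 for the shared, 1.24 for type 1, 1.05 for type 2, 1.07 for the migratory and 1.18 for the plasmacytoid genes. Sums are carried by the most abundant markers. Of the 18 neutrophil markers, 14 were above control in TP5, with a median log2 ratio of 0.24. Receptors of mature neutrophils were below control, with Csf3r at 0.721 (0.714 to 0.729) and Cxcr2 at 0.727 (0.709 to 0.746), and several granule protein genes reached ratios like that of the dendritic sum, such as Ngp at 1.72 (1.70 to 1.73), Ltf at 1.76 (1.74 to 1.78) and Camp at 1.85 (1.82 to 1.89), while Mpo, with 38 counts in control, 148 in TP5, 141 in FR17 and 75 in sFD17, stood at 3.75 (2.61 to 5.51). A higher level in TP5 was thus not particular to the dendritic genes. In sFD17 the dendritic sum was 1.04 (0.986 to 1.09), beside 0.327 for macrophage markers, and in FR17 it was 1.36 (1.3 to 1.42), beside 2.21 for T cell markers. The part of these cells in the dendritic values was not tested.

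**Figure D5:**
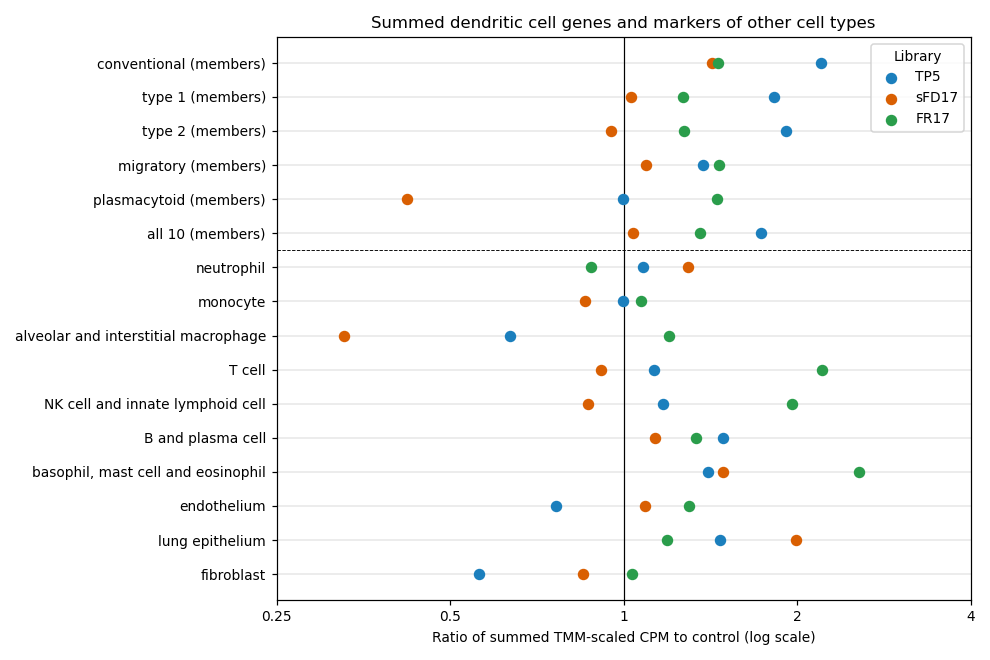
Ratio of summed TMM-scaled CPM to control (horizontal axis, log scale) in the TP5, sFD17 and FR17 libraries, for the dendritic cell genes by subset (above the dashed line) and for markers of 10 other cell types (below it). Points are single libraries without error bars. In TP5 the conventional, type 1 and type 2 sums, of 2, 4 and 1 of the 10 genes, lie to the right of the sums of every other cell type. The longer lists of these subsets, not drawn here, stood at 1.29, 1.24 and 1.05 in TP5, below the 1.49 of B and plasma cell markers. In FR17 the T, NK and basophil sums lie to the right of every dendritic sum.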

How the data were processed

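RNA from sorted cells was sequenced in 4 libraries, 1 per group. The deposited table, made by the authors, holds unnormalized read counts and gene lengths. Per the labels, HISAT2 2.0.5, featureCounts 1.5.0-p3, StringTie 1.3.3b, edgeR 3.18.1 and GRCm38.p6 were named in the submitters' processing notes, without the strand setting of the counting. Columns were matched to samples by group name, with 0 unmapped. Of the 54532 gene identifiers, 53499 have the same coordinates in GENCODE M21, as all 10 genes do. Where 1 symbol stood on several rows (100 symbols), the row with most counts was used.

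Counts were scaled with TMM (R 4.3.3, edgeR 4.0.16), with factors of 0.986, 1.02, 0.849 and 1.17 for control, TP5, sFD17 and FR17. Genes that reached 10 counts in any library, 16369 in all, were tested. Ratios of CPM carry exact conditional 95% intervals (scipy 1.17.1), and a library at 0 counts was set to 3 counts, which makes its ratio a bound. With no replicates, no p-value was computed, and the depth limits the precision only through counting error. DESeq2 1.42.0 gave alternative size factors. The ratios and intervals were tested on simulated data.

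Named genes were the 10, and in each of 6 dendritic lists the 3 highest per kb and the 2 with the largest ratio for each peptide among genes with at least 50 counts; other genes past 2-fold, and Irf4, Irf8, Ccl22, Tcf4, Spib, Flt3l, Ccl19, the Cd209 cluster and the single markers of monocytes, neutrophils and macrophages, were added after their values were seen. Itgam and Ly6g were named as sorting markers and Clec1b for its overlap with Clec9a. The genes and lists were chosen with earlier results of these data known. Within-library ratios, and the share among genes of like control counts, were added after seeing the data. Of the 235 listed symbols, 1 was not matched to a gene.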

Additional observations from a re-analysis of the deposited data

How the results depend on the processing

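No paired analysis was possible because each group is 1 library, and no library could be left out of a comparison for the same reason. DESeq2's size factors and a prior count of 2 moved none of the 60 ratios outside its counting interval, while library size alone, or without its 10 most abundant genes, moved 24 of 60 and put 7 on the other side of 1. Under library size alone the median log2 ratio of all genes was 0.05 in TP5, 0.27 in FR17 and −0.24 in sFD17 against control. No gene past 2-fold changed direction under any alternative.

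With library size alone, or without its 10 most abundant genes, 3 of the 10 genes passed 2-fold in FR17 against control (0 with TMM) and 6 in sFD17 against TP5 (3 with TMM and 2 with DESeq2's size factors, where Cd209a was no longer past 2-fold). On these 2 scales the median log2 ratio of all genes was itself 0.27 in FR17 against control and -0.31 in sFD17 against TP5. The share of all genes past 2-fold was not taken on them. At a ratio of 1.5 on the TMM scale the number was 6 in TP5, 4 in FR17 and 5 in sFD17 against control. For FR17 and sFD17 against TP5 it was 3 and 6. No share of all genes was taken at 1.5, so these numbers have no background to be read against. Counted by intervals without 1, the number was 8, 9, 7, 8 and 8 in the same order, and 4 in FR17 against sFD17. Of the subset sums, library size alone gave, for sFD17 against control, 1.23 for the shared, 0.887 for type 1, 0.819 for type 2 and 0.941 for the migratory genes, and for FR17 1.73, 1.5, 1.51 and 1.73. Without the most abundant gene of its subset, the shared sum was 1.78 in TP5, 1.64 in FR17 and 1.63 in sFD17, the type 1 sum 1.44 in sFD17, and the migratory sum 1.22 in TP5, 1.89 in FR17 and 0.640 in sFD17. Leaving out the 10 genes and genes of more than 1 list left, in TP5, 1 shared, 3 type 1 and 1 type 2 gene past 2-fold, and as there are fewer genes to count, these numbers can only fall.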

Other observations

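Cd209a lies in a cluster of related lectin genes on chromosome 8, and the other 6 were read after the values of the list had been seen. They differed in direction. Cd209f had 749 counts in control, 139 in TP5, 1389 in FR17 and 64 in sFD17 and Cd209g had 284 counts in control, 63 in TP5, 607 in FR17 and 33 in sFD17. In TP5, where Cd209a stood at 1.91 (1.79 to 2.04) times control and Cd209e at 3.58 (2.64 to 4.93), Cd209f stood at 0.179 (0.148 to 0.214) and Cd209g at 0.214 (0.160 to 0.282). In sFD17, Cd209f and Cd209g stood at 0.109 (0.0834 to 0.141) and 0.149 (0.100 to 0.214), where Cd209a was within counting error of control on the TMM scale. In FR17 the ratios of all 7 genes of the cluster lay between 1.20 and 1.57. Cd209b had 149 counts in control, 119 in TP5, 288 in FR17 and 58 in sFD17, Cd209c 96 counts in control, 135 in TP5, 157 in FR17 and 87 in sFD17 and Cd209d 142 counts in control, 224 in TP5, 266 in FR17 and 58 in sFD17. The macrophage markers Folr2 and Cd163 were low in the same libraries as Cd209f, with 569 counts in control, 190 in TP5, 972 in FR17 and 76 in sFD17 of Folr2 and 3879 counts in control, 1954 in TP5, 6812 in FR17 and 611 in sFD17 of Cd163. Their part in the Cd209f values was not tested.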
